A study of Mus musculus with 13 samples.

Results

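H3K4me3, the trimethyl mark that sits on nucleosomes at active promoters, was examined at the promoters of the sirtuins and of the genes that supply their cosubstrate NAD in mouse hippocampus. The set was named by gene: the 7 sirtuins Sirt1 to Sirt7, and Nampt, Nmnat2 and Nadk. A promoter region was listed for 9 of the 10 genes, which makes 9 of the 14006 distinct regions, and Sirt5 was not analysed here. None of the 9 regions passed the test in any comparison between groups, and over the 5 pairwise comparisons the 95% intervals of their changes lay between -20.4% and 25.2%.

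The tissue came from C57BL/6 mice of 4 groups, 13 libraries in all. Knockout mice, genotype TC;MLML_MTR-KO in the labels, were made to lose exons 4 and 5 of Mtr in the nervous system through a Cre transgene under the Thy-1.2 promoter, a promoter active mainly in neurons. Mtr encodes methionine synthase, the cobalamin-dependent enzyme that regenerates methionine for the methyl donor S-adenosylmethionine. The study asked about SIRT1 as a target in this deficiency, and gave SRT2104, a small-molecule SIRT1 activator, by gavage. The knockout SRT2104 group (n = 4, with 2 females and 2 males) and the wild-type SRT2104 group (n = 3, with 1 female and 2 males) had 50 mg/kg, 3 gavages a week between days 15 and 36, 9 in total. The untreated knockouts (n = 2, both female) are labelled as not treated, without mention of vehicle. The wild-type vehicle group (n = 4, all male) had DMSO-PEG on the same schedule, and its genotype label, like that of the wild-type SRT2104 group, is MLML-WT. Sex was read from a letter in the column names. The labels do not tie a library to a mouse, so p-values measure the spread between libraries, which may in part be technical.

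Sirtuins are a family of enzymes that remove acetyl or other acyl groups from proteins and consume one NAD for each group removed, so their activity follows the supply of NAD. In the brain most NAD is recycled: Nampt turns nicotinamide into nicotinamide mononucleotide, the Nmnat enzymes turn that into NAD, and Nadk adds a phosphate to make NADP. SIRT1, SIRT6 and SIRT7 act in the nucleus, SIRT2 mainly in the cytoplasm, and SIRT3 and SIRT4 in mitochondria. H3K4me3 at a promoter accompanies transcription but measures neither the transcript nor the enzyme's activity, which is what SRT2104 acts on.

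Promoter sequences are shown for 5 of the 9 genes, chosen for their CpG content, their motifs or their H3K4me3 level. Each run is the 250 bases before a RefSeq transcript start in build GRCm38.p6, 5′ to 3′ on the strand of the gene. Capitals mark 6 motifs searched on both strands: the E-box CACGTG, the GC box GGGCGG, the ETS site CCGGAAGT, the NRF1 site GCGCATGC, the cAMP response element TGACGTCA and the CCAAT box CCAAT. The E-box and the cAMP response element read the same on both strands. Overlapping matches were counted separately, as for a pair of GC boxes in the Sirt1 run and a pair of NRF1 sites in the Sirt6 run.
Sirt1 (chr10:63339036-63339285, minus strand): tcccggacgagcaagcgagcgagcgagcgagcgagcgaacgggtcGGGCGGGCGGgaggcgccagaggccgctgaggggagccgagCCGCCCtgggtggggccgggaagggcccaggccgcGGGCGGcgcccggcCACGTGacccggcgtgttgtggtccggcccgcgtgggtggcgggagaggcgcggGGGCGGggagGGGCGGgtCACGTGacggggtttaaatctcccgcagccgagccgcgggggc
Sirt4 (chr5:115484298-115484547, minus strand): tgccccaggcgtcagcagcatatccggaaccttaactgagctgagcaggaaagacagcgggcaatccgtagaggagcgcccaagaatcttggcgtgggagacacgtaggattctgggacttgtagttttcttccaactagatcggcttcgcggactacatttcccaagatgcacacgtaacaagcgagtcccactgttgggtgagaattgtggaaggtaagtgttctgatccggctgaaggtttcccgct
Sirt6, upstream start of the 2 listed (chr10:81627567-81627816, minus strand): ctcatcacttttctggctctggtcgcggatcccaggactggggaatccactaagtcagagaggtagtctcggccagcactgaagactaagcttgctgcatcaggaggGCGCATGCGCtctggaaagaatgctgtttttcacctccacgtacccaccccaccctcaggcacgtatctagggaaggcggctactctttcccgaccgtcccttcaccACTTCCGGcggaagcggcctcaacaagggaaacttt
Nampt (chr12:32820085-32820334, plus strand): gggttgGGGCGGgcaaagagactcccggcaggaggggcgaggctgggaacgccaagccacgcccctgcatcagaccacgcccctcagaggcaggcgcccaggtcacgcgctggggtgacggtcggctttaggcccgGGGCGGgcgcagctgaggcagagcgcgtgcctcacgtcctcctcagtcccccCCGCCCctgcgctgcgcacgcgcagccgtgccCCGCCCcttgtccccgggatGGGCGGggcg
Nadk, downstream start of the 2 listed (chr4:155563565-155563814, plus strand): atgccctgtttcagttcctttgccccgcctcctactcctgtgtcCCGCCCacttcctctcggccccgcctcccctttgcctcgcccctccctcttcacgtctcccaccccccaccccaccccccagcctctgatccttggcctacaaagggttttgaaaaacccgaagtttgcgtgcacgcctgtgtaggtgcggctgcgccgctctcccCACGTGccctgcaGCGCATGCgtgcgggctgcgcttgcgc
The Sirt1 run holds 39 CpG dinucleotides, more than 97.1% of the 13855 RefSeq promoters of genes with a listed region, whose median is 15. It has 2 E-boxes, whose first bases lie 115 and 43 bases before the start, and 6 GC boxes. Nampt, with 27 CpG, has 5 GC boxes and no E-box. The Sirt6 run shown holds an ETS site and 2 overlapping NRF1 sites, the Nadk run an E-box, a GC box and an NRF1 site, and the Sirt4 run none of the 6 motifs. A GC box occurs in 7 of the 12 runs of the 9 genes, 1 run each of all genes but Sirt4 and Nmnat2. It occurs in 32.7% of all 32851 RefSeq promoters of the same length. The E-box occurs in 6.02% of all promoters, the ETS site in 2.88%, the NRF1 site in 2.26%, the cAMP response element in 1.55% and the CCAAT box in 33.8%. These matches describe letters in a window, not bound factors, and because the regions below are in build mm9 their overlap with these runs was not measured.

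Values are read counts in a region divided by 1 scaling factor per library, as the authors deposited them, called normalised read counts below. Reads within regions numbered 3963196 in the shallowest library, wild-type SRT2104 replicate 1, and 9009109 in the deepest, knockout SRT2104 replicate 2. The region of the Mtr promoter itself ranged over 438 to 493 in knockout SRT2104, 427 to 510.2 in untreated knockout, 466 to 507 in wild-type SRT2104 and 486 to 493 in wild-type vehicle libraries. That promoter lies outside the deleted exons, so it does not check the genotype labels. All 12 excitatory neuron genes sought as hippocampal markers had a region, with means of 55.3 to 1059 and a median of 492. Among them were Prox1 (1059), Neurod2 (820.4), Slc17a7 (570.2) and Neurod6 (55.3 and 105.8). Of 10 microglial genes 6 had a region, with means of 20.7 to 42.6. Genes of neighbouring brain areas had means of 17.3 to 430.2, the highest at En2.

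The 6 sirtuin regions are described first. Sirt1 encodes the nuclear deacetylase that SRT2104 activates. Its region (mm9, chromosome 10, 62800635 to 62802383, ENSMUSG00000020063) carries no other gene name. Normalised read counts were 952, 802, 872 and 947 in knockout SRT2104 libraries, 975 and 838 in untreated knockout libraries, 686, 885 and 836 in wild-type SRT2104 libraries and 912, 870.0, 887 and 908 in wild-type vehicle libraries. The 4 vehicle libraries lay close together, and 1 library, wild-type SRT2104 replicate 1, stood below all others. The groups overlapped in all 5 pairwise comparisons. Among the 9 regions Sirt1 varied most within groups, with a within-group SD at the 74.8th percentile of all regions.

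The low Sirt1 value came from the shallowest library, in which the region had 380 reads against up to 1051 elsewhere. On the log2 scale it was -0.35 from the Sirt1 mean over 13 libraries, the 2.97th percentile of all region deviations in that library. In the same library the 1183 regions with 30 to 39 CpG in the 250 bases before the gene start (the run with most CpG where there are several), the class of Sirt1, had a median deviation of -0.13, and the 2186 regions with 0 to 9 CpG had -0.01. Within the first class Sirt1 stood at the 3.47th percentile in that library, where the median deviation of all regions was -0.08. In untreated knockout replicate 1 the first class had a median of 0.13 and Sirt1 0.16. In knockout SRT2104 replicate 1 they had 0.06 and 0.13, and in knockout SRT2104 replicate 2 -0.05 and -0.12. Over all 13 libraries Sirt1 lay on the same side of 0 as the median of its CpG class in 11, further out than it in 9 of these, and on the other side in 2. How often other regions lie on the side of their class was not counted. The part of CpG content or depth in the Sirt1 values was not tested.

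**Figure D1:**
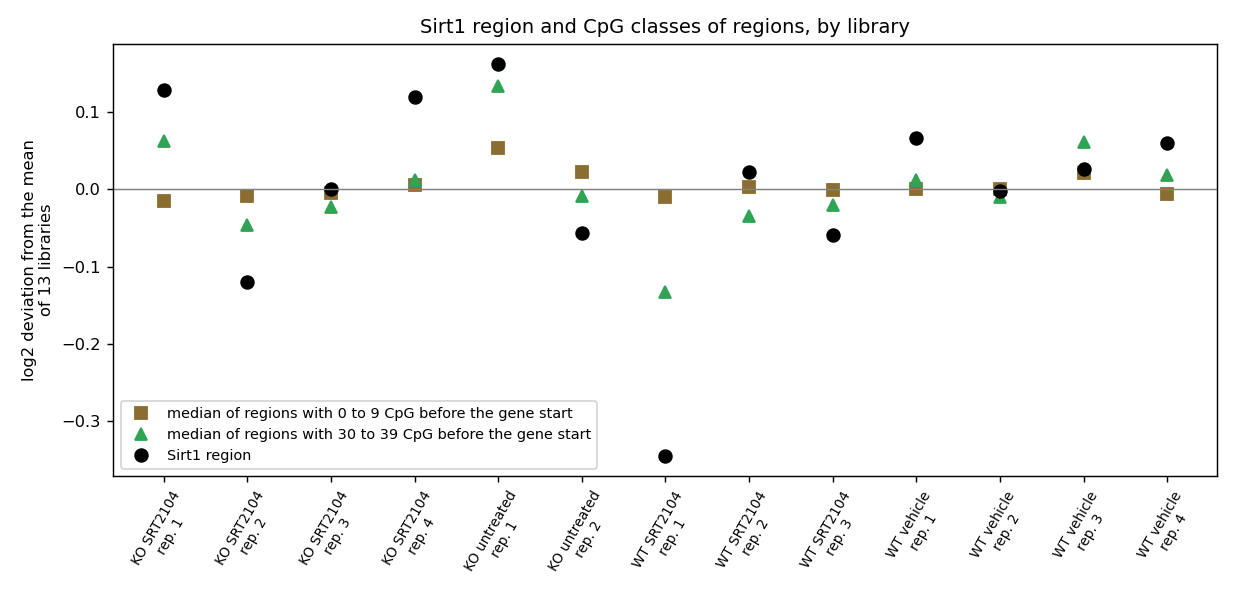
Log2 deviation of normalised read counts from the mean of 13 libraries (y axis) in each library (x axis), for the Sirt1 region (black circles), for the median of regions with 30 to 39 CpG before the gene start (green triangles) and for the median of regions with 0 to 9 CpG (brown squares). Wild-type SRT2104 replicate 1 has the lowest Sirt1 value, -0.35, beside a class median of -0.13, and untreated knockout replicate 1 the highest, 0.16, beside 0.13.

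Sirt2 encodes the mainly cytoplasmic, tubulin-directed deacetylase that is abundant in myelinating oligodendrocytes. Its region (chromosome 7, 29550810 to 29552732, ENSMUSG00000015149) is also listed for Nfkbib, an inhibitor of NF-kappaB, and the marks of both genes cannot be told apart. Counts were 754, 775, 747 and 762 in knockout SRT2104 libraries, 841 and 761 in untreated knockouts, 749, 755 and 753 in wild-type SRT2104 libraries and 768, 727, 788 and 782 in wild-type vehicle libraries. Sirt2 was the least variable of the 9 regions within groups, at the 4.16th percentile, and untreated knockout replicate 1 was the highest of the 13.

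The oligodendrocyte and myelin markers, 13 of 16 with a region, summed to 4052 to 4136 in knockout SRT2104, 3182 to 4191 in untreated knockout, 3453 to 3940 in wild-type SRT2104 and 3389 to 4521 in wild-type vehicle libraries. The spread of these sums within 3 of the groups was wider than that of Sirt2. Because these are bulk samples, fewer cells of a type and less mark per cell cannot be told apart.

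Sirt3 and Sirt4 encode mitochondrial sirtuins, SIRT3 being the main deacetylase of that compartment. The Sirt3 region (chromosome 7, 148067163 to 148068881, ENSMUSG00000025486) is also listed for the proteasome subunit gene Psmd13. It had 832, 848, 841 and 885 in knockout SRT2104 libraries, 951 and 822 in untreated knockouts, 779, 836 and 872 in wild-type SRT2104 libraries and 873, 878, 899 and 841 in wild-type vehicle libraries. The highest and the lowest of these again fell in untreated knockout replicate 1 and wild-type SRT2104 replicate 1. The Sirt4 region (chromosome 5, 115933841 to 115934983, ENSMUSG00000029524) had 243, 254, 277 and 261 in knockout SRT2104 libraries, 255 and 292 in untreated knockouts, 294, 262 and 256 in wild-type SRT2104 libraries and 261, 243, 275 and 266 in wild-type vehicle libraries. Sirt4 ran the other way from Sirt1 in wild-type SRT2104 replicate 1, where it had its highest value, from 163 reads.

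Sirt6 encodes a chromatin-bound deacetylase of histone H3, and Sirt7 a nucleolar sirtuin tied to ribosomal RNA transcription. The Sirt6 region (chromosome 10, 81089534 to 81090802, ENSMUSG00000034748) is also listed for Ankrd24. Its counts were 349, 417, 441 and 418 in knockout SRT2104 libraries, 447 and 439 in untreated knockouts, 429, 429 and 414 in wild-type SRT2104 libraries and 423, 413, 461 and 412 in wild-type vehicle libraries. Knockout SRT2104 replicate 1 was the lowest of the 13. The Sirt7 region (chromosome 11, 120485563 to 120486770, ENSMUSG00000025138) had 535, 521, 534 and 544 in knockout SRT2104 libraries, 567 and 542 in untreated knockouts, 473, 506 and 518 in wild-type SRT2104 libraries and 534, 516, 565 and 553 in wild-type vehicle libraries. All 4 knockout SRT2104 libraries lay above all 3 wild-type SRT2104 libraries at Sirt7, and the ranges of the other compared groups overlapped.

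The 3 NAD supply genes come next. Nampt encodes the rate-limiting enzyme of NAD recycling. Its region (chromosome 12, 33504478 to 33506313, ENSMUSG00000020572) had 803, 732, 753 and 767 in knockout SRT2104 libraries, 882 and 770 in untreated knockouts, 779, 781 and 761 in wild-type SRT2104 libraries and 790.4, 788, 823 and 809 in wild-type vehicle libraries. All 3 wild-type SRT2104 libraries lay below all 4 vehicle libraries, by a margin of a few counts.

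Nmnat2 encodes the NAD-forming enzyme of axons, whose loss lets axons degenerate. Its region (chromosome 1, 154801932 to 154803794, ENSMUSG00000042751) had 745, 714, 669 and 676 in knockout SRT2104 libraries, 767 and 714 in untreated knockouts, 715, 630 and 673 in wild-type SRT2104 libraries and 632, 684, 782 and 684 in wild-type vehicle libraries. The vehicle libraries alone spanned nearly the whole range of the 13. Nadk, the NAD kinase gene, had 661, 716, 746 and 699.9 in knockout SRT2104 libraries, 801 and 729 in untreated knockouts, 700.1, 667 and 680.2 in wild-type SRT2104 libraries and 757, 694, 779 and 720 in wild-type vehicle libraries, in a region at chromosome 4, 154937164 to 154939010 (ENSMUSG00000029063). Untreated knockout replicate 1 held the highest Nadk value, as it did for Sirt1, Sirt2, Sirt3, Sirt7 and Nampt. The median log2 deviation of all regions in that library, 0.10, was also the highest of the 13 libraries.

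**Figure D2:**
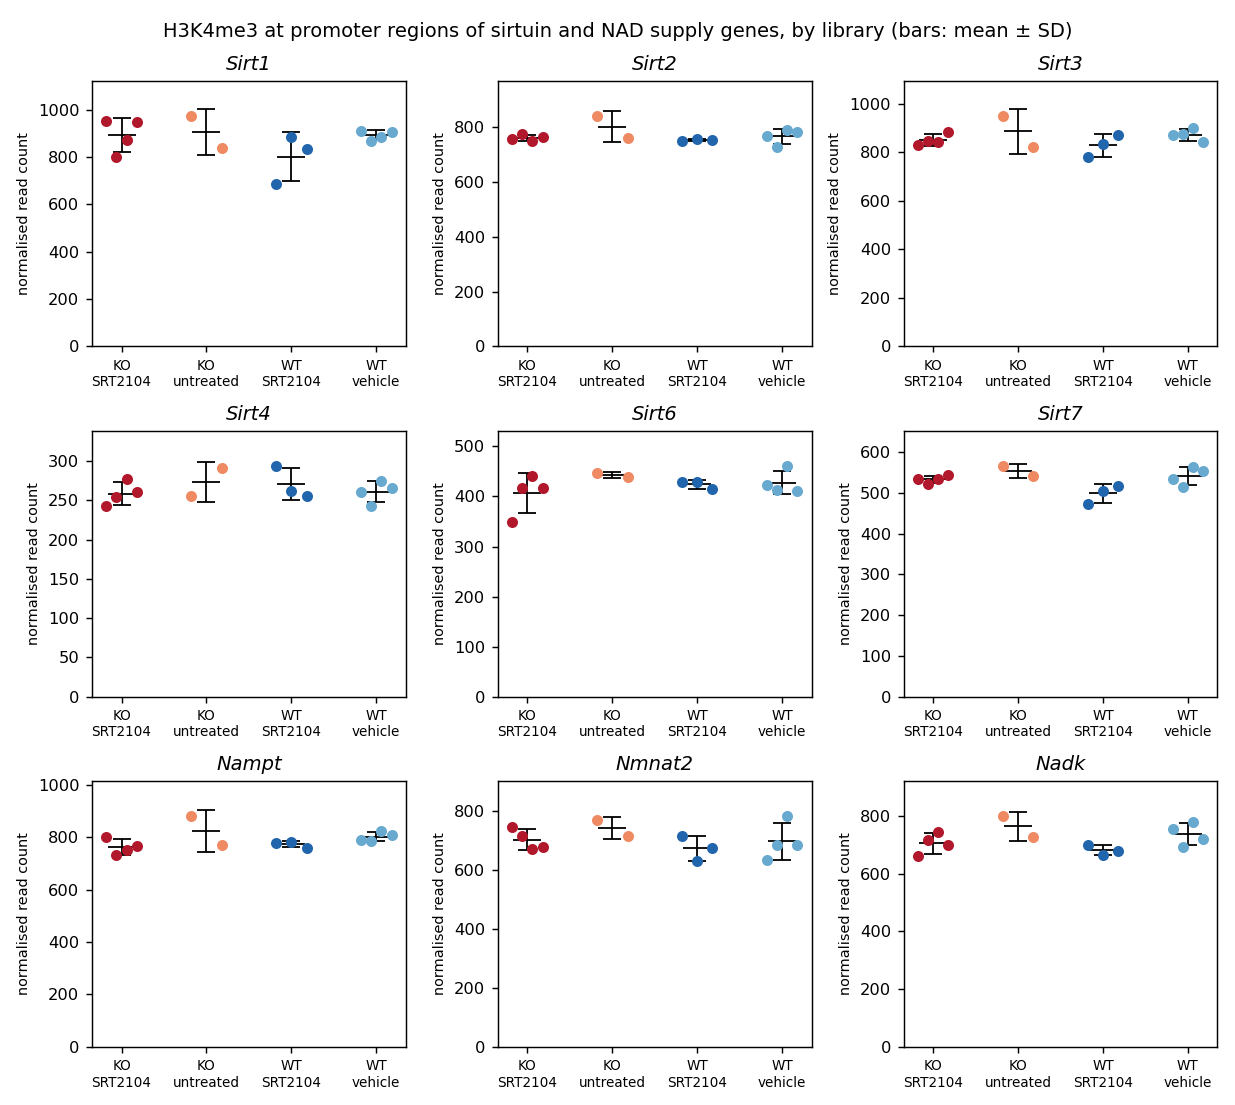
Normalised read counts (y axis, from 0) of the 9 regions, 1 panel per gene, with 1 point per library and the mean ± SD of each group, for knockout SRT2104 (n = 4), untreated knockout (n = 2), wild-type SRT2104 (n = 3) and wild-type vehicle (n = 4). Group means of a gene lie close together, for Sirt1 between 802 and 906, and the points of the groups overlap except where the text says otherwise.

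Levels were compared between genes per kb of region. Over 13 libraries Sirt1 averaged 500.3 ± 43.0 normalised read counts per kb, Sirt3 499.5 ± 24.5, Sirt7 440.1 ± 21.1, Nampt 429 ± 20.4, Sirt2 399 ± 14.3, Nadk 389.6 ± 23.0, Nmnat2 375 ± 25.1, Sirt6 333 ± 21.1 and Sirt4 232 ± 14.1 (SD, n = 13). Of the 8 steps between neighbours in this order, the 1 from Sirt6 to Sirt4 had ranges that did not overlap, and Sirt1 was above Sirt3 in 8 of 13 libraries. Sirt3 was above Sirt7, and Sirt6 above Sirt4, in 13 of 13. Set against all regions, whose median was 360 per kb, Sirt1 stood at the 90.5th percentile, Sirt3 at the 90.4th and Sirt4 at the 24.5th. The Sirt2, Sirt3 and Sirt6 regions are shared with Nfkbib, Psmd13 and Ankrd24, so their levels cannot be assigned to the sirtuin alone. Without division by length, Nampt had rank 3, Sirt2 4, Nadk 5, Nmnat2 6 and Sirt7 7, and the ranks of Sirt1, Sirt3, Sirt6 and Sirt4 were the same.

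**Figure D3:**
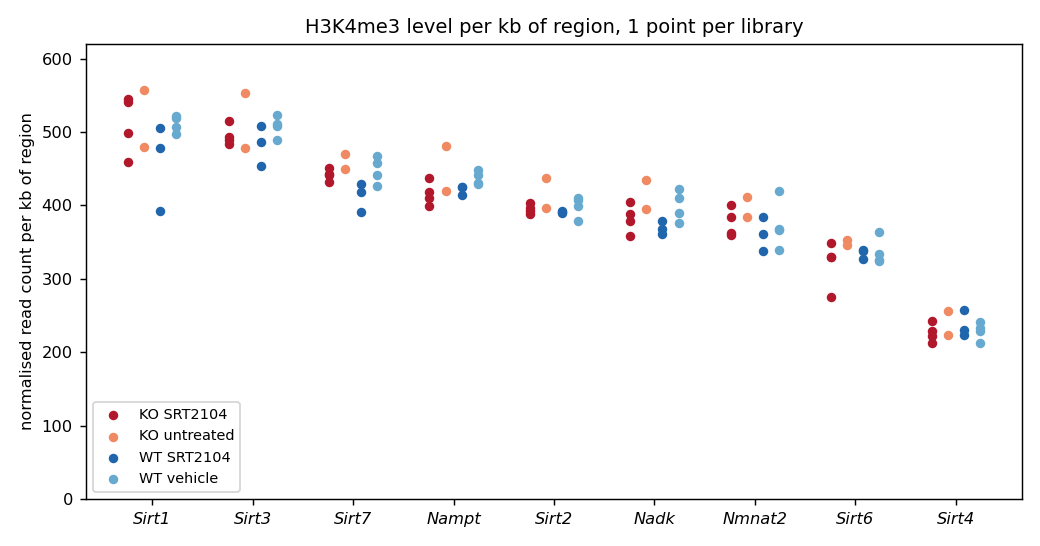
H3K4me3 level in normalised read counts per kb of region (y axis, from 0) for the 9 genes in order of their mean (x axis), 1 point per library, coloured by group. Sirt1 and Sirt3 share the top near 500.3 and 499.5, and Sirt4 lies apart at 232. The Sirt2, Sirt3 and Sirt6 regions are also listed for another gene.

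Differences between groups were tested with limma on log2(value + 1), over all 14006 regions with Benjamini-Hochberg adjustment, and a region was called at an adjusted p under 0.05. For untreated knockout against wild-type vehicle, 0 of 9 regions were called, 0 had an unadjusted p under 0.05, and edgeR and DESeq2 on the recovered reads called 0 as well. Of all regions limma called 0.00714%, which is 1 region, while edgeR called 0 and DESeq2 25. All 9 estimates were above 0, with a median of 0.05 beside 0.03 over all regions, and 7 of 9 were above 0 under TMM scaling, 6 under cyclic loess scaling and 4 without untreated knockout replicate 1. The furthest from 0 was Nmnat2 at 0.09 ± 0.07 (SE), with a limma adjusted p of 0.748. The 2 groups overlapped at 9 of 9 genes, while 13.2% of all regions did not overlap. Intervals of 95% for the 9 genes ran between a change of -11.2% and one of 19.6%. In the authors' deposited table the log2 fold of knockout over wild type lay between 0.02 for Sirt1 and 0.09 for Nmnat2, with adjusted p-values of 0.914 to 0.990. Sex, gavage and genotype cannot be told apart in this comparison, since both knockouts were female and untreated and all vehicle libraries male.

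For knockout SRT2104 against untreated knockout, limma called 0 of 9 regions, 0 had an unadjusted p under 0.05, and edgeR and DESeq2 called 0. Over all regions limma called 0.0%, edgeR 0 regions and DESeq2 29. All 9 estimates were below 0, with a median of -0.08 beside -0.05 over all regions, and 1 of 9 was above 0 under TMM scaling and 2 under cyclic loess scaling. Sirt6 had -0.13 ± 0.08, Nadk -0.12 ± 0.06 and Nampt -0.11 ± 0.06 (SE), with limma adjusted p-values of 0.480, 0.441 and 0.443. Without knockout SRT2104 replicate 1 Sirt6 had -0.06, while Nampt had -0.01 without untreated knockout replicate 1 and -0.21 without untreated knockout replicate 2. The groups overlapped at all 9 genes, where 21.7% of all regions did not, and the intervals ran between -18.3% and 12.2%. Gavage differs between these groups and cannot be told apart from SRT2104. Sex differs in part as well, since both untreated knockouts were female and 2 of the 4 knockout SRT2104 libraries male. The 12 astrocyte markers, all with a region, summed to 3567 to 3813 in knockout SRT2104, 4179 to 4251 in untreated knockout, 3830 to 3899 in wild-type SRT2104 and 3651 to 3866 in wild-type vehicle libraries, and none averaged under 102. Sums of the GABAergic, choroid plexus and neighbouring brain region lists, given below, lay higher in knockout SRT2104 than in untreated knockout libraries, without overlap. The part of these shifts in the values of the 9 genes was not tested.

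For wild-type SRT2104 against wild-type vehicle, the direct comparison of compound with vehicle, limma called 0 of 9 regions, against 0.00714% of all regions, and edgeR and DESeq2 called 0. An unadjusted p under 0.05 was reached by 2 of the 9, Sirt7 and Sirt1, and by 13.4% of all regions. Sirt7 averaged 499 ± 23.5 in wild-type SRT2104 and 542 ± 21.7 in wild-type vehicle libraries (SD), a log2 difference of -0.12 with a 95% interval from -0.23 to -0.01 and a limma adjusted p of 0.356. Sirt1 averaged 802 ± 104 in wild-type SRT2104 and 894 ± 19.5 in wild-type vehicle libraries, a log2 difference of -0.16 with an interval from -0.33 to -4.3e-05 and a limma adjusted p of 0.373. Neither difference passed, and the Sirt1 one moved to -0.06 without wild-type SRT2104 replicate 1, the shallow library described above, with a limma adjusted p of 0.952. It was -0.11 under TMM scaling, -0.09 under cyclic loess scaling, -0.09 in edgeR and -0.09 in DESeq2. Sirt7 was -0.08 without the same library, -0.07 under TMM scaling, -0.06 under cyclic loess scaling, -0.06 in edgeR and -0.06 in DESeq2. That library is also the 1 female among the 7 of these groups. The remaining differences lay between -0.11 for Nadk and 0.05 for Sirt4, and the median of the 9 was -0.05, beside -0.05 over all regions.

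Nampt was the 1 gene of 9 whose wild-type SRT2104 and vehicle libraries did not overlap, where 14.4% of all regions did not. It averaged 774 ± 11.0 in wild-type SRT2104 and 803 ± 16.6 in wild-type vehicle libraries (SD), a log2 difference of -0.05 ± 0.05 (SE) with a limma adjusted p of 0.629. Under TMM scaling the Nampt difference was -3.27e-05 and under cyclic loess scaling 0.02, so its sign turned with the scaling. Over the 9 genes the 95% intervals of this comparison ran between -20.4% and 16.6%.

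For knockout SRT2104 against wild-type SRT2104, limma called 0 of 9 regions, against 0.00714% of all, 0 had an unadjusted p under 0.05, and edgeR and DESeq2 called 0. Sirt1 averaged 893 ± 71.2 in knockout SRT2104 and 802 ± 104 in wild-type SRT2104 libraries (SD), a log2 difference of 0.16 ± 0.08 (SE) with a limma adjusted p of 0.780, and 0.05 without wild-type SRT2104 replicate 1. Sirt7, at 533 ± 9.55 in knockout SRT2104 and 499 ± 23.5 in wild-type SRT2104 libraries, was the 1 gene of 9 without overlap, where 6.8% of all regions did not overlap. Its log2 difference was 0.10 ± 0.05 (SE), with a limma adjusted p of 0.780, and moved to 0.06 without wild-type SRT2104 replicate 1 and to 0.06 under TMM scaling. Of the 9 estimates 6 were above 0, with a median of 0.04 beside 0.03 over all regions, and 5 were under TMM scaling and 4 under cyclic loess scaling. Intervals ran between -15.1% and 25.2%.

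For knockout SRT2104 against wild-type vehicle, limma called 0 of 9 regions, against 0.00714% of all, 0 had an unadjusted p under 0.05, and edgeR and DESeq2 called 0. The groups overlapped at all 9 genes, where 2.76% of all regions did not. Sirt1 averaged 893 ± 71.2 in knockout SRT2104 and 894 ± 19.5 in wild-type vehicle libraries, a log2 difference of -0.01 ± 0.07 (SE). The difference furthest from 0 was that of Sirt6, -0.08 ± 0.06. These groups had 4 libraries each, and their intervals, between -13.4% and 10.7%, spanned the least of the 5 comparisons. Genotype and SRT2104 both differ between these groups and cannot be told apart. Sex differs in part as well, since 2 of the 4 knockout SRT2104 libraries were female and all vehicle libraries male. The comparisons above share libraries, so they are not independent of each other.

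The difference between the SRT2104 response of knockouts and that of wild types was tested as an interaction. Limma called 0 of 9 regions, 0 had an unadjusted p under 0.05, and edgeR and DESeq2 called 0. Over all regions limma called 0.0%, edgeR 0 regions and DESeq2 13. The estimate of Sirt1 was 0.14 ± 0.12 (SE) and that of Sirt4 -0.13 ± 0.13, the 2 furthest from 0, and the smallest limma adjusted p was 0.874. Intervals were wide, between -23.6% and 31.3%, and the knockout arm of this term compares gavage with none.

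**Figure D4:**
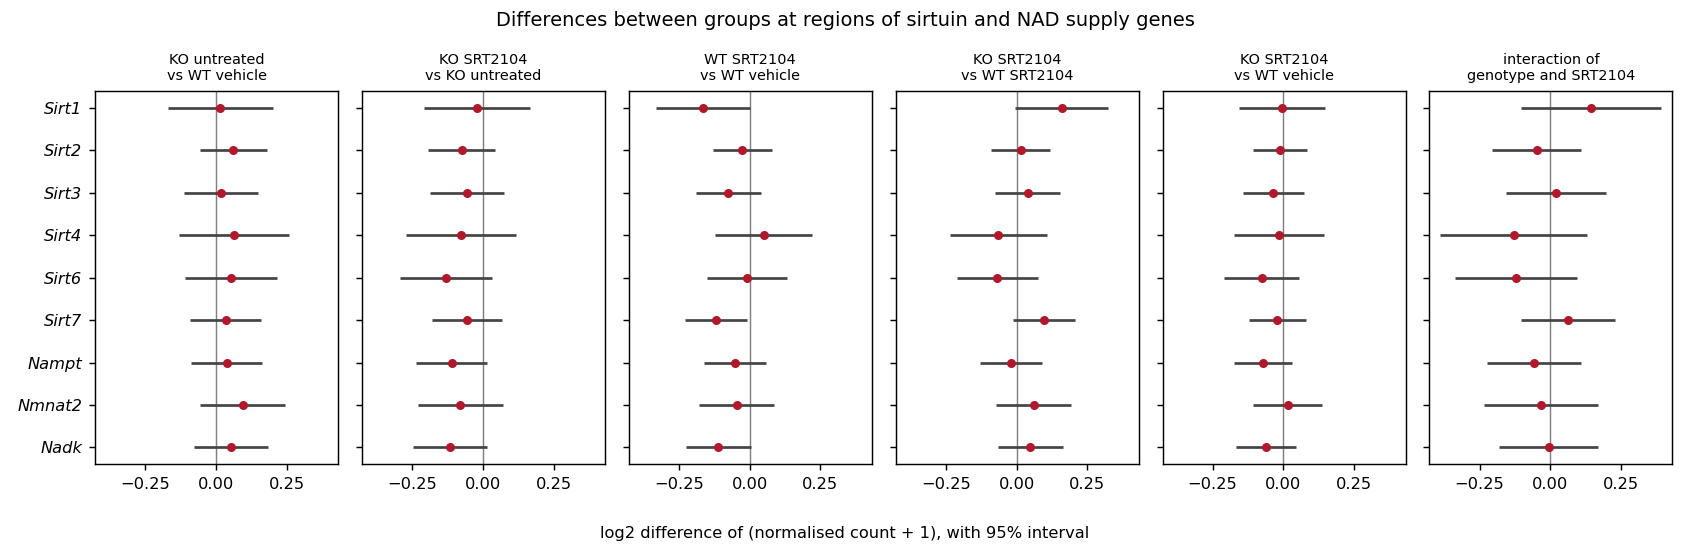
Log2 differences of (normalised read count + 1) with 95% intervals (x axis) for the 9 genes (y axis) in the 5 comparisons and the interaction, from limma. The intervals of Sirt1 and Sirt7 in wild-type SRT2104 against wild-type vehicle lie below 0, at -0.16 and -0.12, and all others span 0.

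Other genes of NAD metabolism and of SIRT1 control were taken from 3 lists. The NAD synthesis list covers the enzymes of the other routes to NAD and 7 of its 16 genes were analysed, while the kynurenine route genes Haao, Kmo, Kynu, Qprt and Tdo2 were not analysed here. The list of NAD users and nicotinamide clearance had 12 of 14, and the list of SIRT1 partners and regulators 13 of 14. Over all 3, limma called 0 of 38 regions in each comparison and in the interaction, and so did edgeR and DESeq2. An unadjusted p under 0.05 was reached by 3 of the 38 (7.89%) for untreated knockout against wild-type vehicle, where 9.14% of all regions reached it, and by 2 (5.26%) for knockout SRT2104 against untreated knockout, where 12.5% did. For wild-type SRT2104 against vehicle it was 3 (7.89%) beside 13.4%, for knockout SRT2104 against wild-type SRT2104 2 (5.26%) beside 6.2%, for knockout SRT2104 against wild-type vehicle 0 beside 2.16%, and for the interaction 2 (5.26%) beside 7.88%. These shares rest on 0 to 3 of 38 regions, in comparisons that share libraries. Whether they differ from the shares of all regions was not tested.

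Among NAD users, Nt5e encodes an ectoenzyme that hydrolyses nucleoside monophosphates outside the cell. It had 400, 343, 401 and 387 in knockout SRT2104 libraries, 343 and 297 in untreated knockouts, 370, 398 and 387 in wild-type SRT2104 libraries and 455, 415, 324 and 391 in wild-type vehicle libraries. Vehicle replicate 3 lay inside the range of the untreated knockouts. The log2 difference of untreated knockout against wild-type vehicle was -0.30 ± 0.10 (SE), with a limma adjusted p of 0.373. Without wild-type vehicle replicate 3 it was -0.39 ± 0.09 with a limma adjusted p of 0.00892, the 1 call that any setting gave in the 3 lists, in a fit that called 564 regions. The Nt5e difference was 0.26 ± 0.10 for knockout SRT2104 against untreated knockout (limma adjusted p = 0.341) and 0.29 ± 0.14 in the interaction (limma adjusted p = 0.617).

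In the list of NAD users, Pnp, whose product splits nucleosides including nicotinamide riboside, had -0.15 ± 0.07 for untreated knockout against wild-type vehicle, -0.14 ± 0.06 for knockout SRT2104 against wild-type SRT2104 and -0.09 ± 0.06 for knockout SRT2104 against wild-type vehicle, none called. Tnks2, a tankyrase, had -0.14 ± 0.07 for knockout SRT2104 against untreated knockout and -0.13 ± 0.06 for wild-type SRT2104 against vehicle. Nnt, the mitochondrial transhydrogenase gene, had -0.20 ± 0.11 for wild-type SRT2104 against vehicle and 0.17 ± 0.11 for knockout SRT2104 against wild-type SRT2104. Sarm1, whose product cleaves NAD in injured axons, had 0.08 ± 0.05 for knockout SRT2104 against wild-type vehicle, and the aldehyde oxidase gene Aox1 had 0.25 ± 0.16 in the interaction. All of these are log2 differences with their SE.

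Of the NAD synthesis genes, Afmid, the formamidase gene of the kynurenine route, has 2 weak regions. For knockout SRT2104 against untreated knockout the stronger Afmid region had -0.42 ± 0.26 and the weaker 0.16 ± 0.29, and for untreated knockout against wild-type vehicle the stronger had 0.21 ± 0.26 and the weaker -0.33 ± 0.29, so the estimates of both regions differed in sign. For knockout SRT2104 against wild-type SRT2104 the weaker Afmid region had -0.32 ± 0.26 and the stronger -0.11 ± 0.23, and against wild-type vehicle the stronger had -0.21 ± 0.21 and the weaker -0.17 ± 0.24. Ido1 had 0.19 ± 0.13 for knockout SRT2104 against untreated knockout, and Nmnat3, the mitochondrial NAD-forming enzyme gene, -0.13 ± 0.08 for untreated knockout against wild-type vehicle and 0.17 ± 0.11 in the interaction. Nadsyn1, the NAD synthetase gene, had -0.10 ± 0.07 for knockout SRT2104 against wild-type SRT2104 and -0.13 ± 0.10 in the interaction. The mitochondrial NAD kinase gene Nadk2 had -0.08 ± 0.06 for wild-type SRT2104 against vehicle and -0.06 ± 0.05 for knockout SRT2104 against wild-type vehicle, and the nuclear Nmnat1 -0.06 ± 0.05 for wild-type SRT2104 against vehicle. These genes had the 2 smallest p-values of their list in the comparisons given, and none was called.

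Among SIRT1 partners and regulators, E2f1, a cell-cycle transcription factor, averaged 475 in wild-type SRT2104 and 545 in wild-type vehicle libraries, a log2 difference of -0.20 ± 0.07 (limma adjusted p = 0.332). It had -0.08 ± 0.06 for knockout SRT2104 against wild-type vehicle and 0.26 ± 0.10 in the interaction (limma adjusted p = 0.536). Dyrk1a, a kinase that phosphorylates SIRT1, has 2 regions, with 0.16 ± 0.07 and 0.17 ± 0.09 for knockout SRT2104 against wild-type SRT2104, and -0.17 ± 0.07 in 1 of them for wild-type SRT2104 against vehicle. Smarcd1, a chromatin remodelling subunit, averaged 581 in knockout SRT2104 and 652 in untreated knockout libraries, a log2 difference of -0.17 ± 0.06 (limma adjusted p = 0.301). Smarcd1 had 0.12 ± 0.06 for untreated knockout against wild-type vehicle and -0.12 ± 0.08 in the interaction. The corepressor gene Ctbp1 had 0.15 ± 0.07 for untreated knockout against wild-type vehicle and -0.14 ± 0.07 for knockout SRT2104 against untreated knockout, and the methyltransferase gene Prmt1 -0.10 ± 0.07 for knockout SRT2104 against wild-type vehicle.

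The 9 regions were also compared by how they varied together across the 13 libraries, as a description without a test. Pearson correlations of log2 values over the 36 pairs of genes had a median of 0.40 and ranged over -0.57, for Sirt1 and Sirt4, to 0.79, for Sirt1 and Sirt7. With the median of all regions in each library subtracted, the median over pairs was 0.05 and the range -0.68 to 0.67. Sirt1 and Sirt4 then had -0.68, and Sirt1 and Sirt7 had 0.62. The points share library, depth and base composition. The regions most like Sirt1, among 12172 with a mean of at least 100, were Mier3 (r = 0.97), Larp1b (r = 0.97) and the region shared by 2010001A14Rik and Sap30l (r = 0.97), against a median r of 0.42. These 3 regions had 34, 27 and 36 CpG before the gene start. The regions most like Nampt were that of 2310035C23Rik and Pign (r = 0.95), that of Atg2b and Gskip (r = 0.94) and Uggt2 (r = 0.92), against a median r of 0.40. They had 16, 27 and 22 CpG before the gene start.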

How the data were processed

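The authors deposited 1 table, whose signal values are reads per region scaled by a factor for each of the 13 libraries. It also holds the authors' log2 fold change and p-values for knockout against wild type. The submitters' processing notes name build mm9 and the tools Bowtie2, SAMtools, bedtools, MACS2 and DESeq2, with no version. Region calling is not given in any source used. The 17212 lines hold 14006 distinct regions, listed by promoter windows of 2500 bp, and coordinates are printed as deposited. Columns from other series numbered 0. All values (100% within 0.001 reads) were whole multiples of 1 read, so reads were recovered for edgeR (quasi-likelihood, TMM) and DESeq2 as alternatives. PCR copies are unmarked, so a read is not an independent molecule.

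Limma's moderated two-sided test, with a mean trend and robust variance, was run on log2(value + 1) with 1 coefficient per group, adjusted over all regions by Benjamini-Hochberg. This scale slightly understates fold changes of low regions. A filter (10 in at least 2 libraries) removed 0 regions, so all 9 members were tested. The fit was run on simulated data with known fold changes larger than the member differences. These data had the same spread setting for all regions and no CpG-linked shifts between libraries. Recovery of differences as small as those of the members was not tested. Replicate numbers were not taken to pair libraries. Other genes named had the 2 smallest p-values of their list in a comparison, or the 3 highest Pearson r. The members and lists were chosen with earlier results of these data known. Tools were Python 3.11.15 with pandas 2.3.3 and matplotlib 3.10.9, and R 4.3.3 with limma 3.58.1, DESeq2 1.42.0 and edgeR 4.0.16.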

Additional observations from a re-analysis of the deposited data

How the results depend on the processing

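Under 23 alternative settings (pseudocount 10, a filter at 50 or none, TMM or cyclic loess scaling, edgeR, DESeq2, sex as a covariate, a replicate block, fitting the compared groups alone, and leaving out each of the 13 libraries) 0 of the 9 member regions were called in any comparison. Calls over all 14006 regions changed with the setting. For knockout SRT2104 against untreated knockout they were 0 as reported, 29 in DESeq2 and 365 with the compared groups alone. For untreated knockout against wild-type vehicle they were 1, 25 and 47 in the same order. The smallest limma adjusted p was 0.165, for Nampt in knockout SRT2104 against untreated knockout without untreated knockout replicate 2. Of 1233 single-gene values under these settings 93 had the other sign from the reported one, and none of these was called. The largest shift was 0.11 on the log2 scale. Over the listed NAD and SIRT1 genes the count called for untreated knockout against wild-type vehicle, 0 as reported, ranged over 0 to 1 when 1 library was left out; the 1 was Nt5e, without wild-type vehicle replicate 3, where calls over all regions went up to 564 against 1. With the replicate number as a block 0 of 9 member regions were called in each comparison. Same-numbered libraries of different groups had correlations of -0.29 to 0.19 in their deviations, over 0.1 in 3 of 16 pairs. Differently numbered libraries had -0.49 to 0.41, over 0.1 in 13 of 46 pairs. The labels' numbers were therefore not taken to pair mice. Deviations of the 2 untreated knockouts mirror each other by construction, so these pairs are not independent. Fitting the compared groups alone gives nothing further for the interaction, which uses all 4. Where an untreated knockout was left out, the lone library was assumed to vary like the other groups. The group sizes of 2 to 4 libraries limit precision, and the reads behind a member value went down to 163, for Sirt4.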

Other observations

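Marker genes of other cell types gave summed normalised read counts that differed between libraries, and their part in the values of the sirtuin and NAD supply genes was not tested. The excitatory neuron list (12 of 12 genes with a region) summed to 6361 to 7534 in knockout SRT2104, 7028 to 7518 in untreated knockout, 6819 to 7932 in wild-type SRT2104 and 6504 to 7237 in wild-type vehicle libraries. The GABAergic neuron list (8 of 10) summed to 1425 to 1688 in knockout SRT2104, 1265 to 1274 in untreated knockout, 1286 to 1505 in wild-type SRT2104 and 1321 to 1856 in wild-type vehicle libraries. For endothelial cells and pericytes (10 of 10) the sums were 1449 to 1689 in knockout SRT2104, 1688 to 1953 in untreated knockout, 1627 to 1691 in wild-type SRT2104 and 1528 to 1714 in wild-type vehicle libraries.

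Choroid plexus and ependyma markers (8 of 10) summed to 1801 to 2106 in knockout SRT2104, 1476 to 1595 in untreated knockout, 1624 to 1985 in wild-type SRT2104 and 1569 to 2100.0 in wild-type vehicle libraries. Genes of neighbouring brain regions (9 of 11) summed to 1071 to 1311 in knockout SRT2104, 813 to 882 in untreated knockout, 1012 to 1158 in wild-type SRT2104 and 791 to 1301 in wild-type vehicle libraries. The microglial sums were 154 to 176 in knockout SRT2104, 160 to 168 in untreated knockout, 165 to 207 in wild-type SRT2104 and 129 to 176 in wild-type vehicle libraries.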
